A study of Mus musculus with 4 samples.

Results

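The genes described here are those named as cytosolic ribosomal proteins in an m6A map of mouse macrophages. They were chosen by symbol alone: every gene with a called site whose name starts with Rpl or Rps and a digit, together with Rpsa and Rplp0, Rplp1 and Rplp2, and without the Rps6k kinases. The rule found 38 genes among the 8800 with a called site in at least 1 mouse, 35 in each animal. Of these, 24 encode proteins of the large (60S) ribosomal subunit and 5 encode proteins of the small (40S) subunit. Another 4 are paralogues (Rps27l, Rpl7l1, Rpl22l1 and Rpl36al) and 4 are pseudogenes in RefSeq (Rpl36-ps2, Rps15a-ps6, Rps3a3 and Rps4l). The last, Rps19bp1, goes against the label: it encodes a binding partner of a ribosomal protein and not a part of the ribosome. It is described in a paragraph of its own, but its 7 called sites, all enriched in both mice, are kept in every count over all 38 genes.

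Macrophages grown from the bone marrow of 2 wild-type mice were studied, and every culture had received LPS, a component of the outer membrane of bacteria, for 3 h. The assay was m6A-eCLIP, in which RNA fragments bound by an antibody against N6-methyladenosine (m6A) are sequenced. Each mouse gave 1 immunoprecipitated (IP) and 1 input library of polyadenylated RNA. The deposited tables carry the term NTC in their names, which the labels do not explain. No culture went without LPS, so nothing here compares activated with resting cells. The animals had 45668 and 47747 called sites, each a single nucleotide with its strand. All 6 macrophage markers checked had a called site in both mice. None of the 5 lymphocyte, 4 stromal and endothelial and 3 dendritic cell markers did, while 4 of 5 neutrophil markers (Ngp, Camp, S100a8 and S100a9) did. Whether neutrophil RNA had a part in the values below was not tested.

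Ribosomal proteins bind ribosomal RNA to form the particles that translate messenger RNA, and their messages are among the most abundant and shortest of a cell. Many of them begin with a run of pyrimidines, the terminal oligopyrimidine or TOP tract, through which the kinase mTOR controls their translation. m6A is placed within messages mostly at an adenosine between a purine and a cytidine, chiefly in long internal exons and near stop codons. A related mark, m6Am, sits on an adenosine next to the cap, is made by a different enzyme and is bound by the same antibodies.

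The sequences around the called adenosines show what the sites near gene starts look like. They are the 10 sites of these genes with the highest mean log2 fold among those enriched in both mice within 50 bases of a listed start and with all flanking bases inside the table (1 site of Rps27l, with folds of 18.5 and 20.2, reaches past its end), from RefSeq promoters of GRCm38.p6, an assembly with the same coordinates as mm10. Each runs 5′ to 3′ on the strand of the gene over 21 bases, with the called adenosine in capitals.
Rps27l, chr9:66946082-66946102, plus strand: cgccgcctctAtcccggaagt
Rpl36al, chr12:69184052-69184072, minus strand: gctcaggttcAgttccgactt
Rpl12, chr2:32961675-32961695, plus strand: ttttccgcctAtatccggcgt
Rplp0, chr5:115559475-115559495, plus strand: tggttctcctAtaaaaggcac
Rpl7l1, chr17:46782643-46782663, minus strand: gcgcaagcgcAgtagctgaag
Rps27l, chr9:66946090-66946110, plus strand: ctatcccggaAgttgctgagg
Rpl11, chr4:136053391-136053411, minus strand: ctcctgacccAtaaggccacg
Rps27l, chr9:66946111-66946131, plus strand: ggcgctcgaaAgcgagcagtt
Rpl11, chr4:136053383-136053403, minus strand: ccataaggccAcggggccgga
Rpl36a, chrX:134585650-134585670, plus strand: caccgcctatAaacttccgtt

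For contrast, these are 1 called site each of Rpl26 and Rpl19, under the limit in both mice and just before a pyrimidine run. They lie 19 and 30 bases past the nearest listed start. A pyrimidine run also followed 2 of 14 sites enriched in both mice, so the pair does not stand for weaker sites in general. Rpl19 had other called sites near a listed start, of which that at 98026926 was called in mouse 1 only, at a fold of 9.36.
Rpl26, chr11:68901575-68901595, plus strand: agtcgcgtgtAgttctctttc
Rpl19, chr11:98026944-98026964, plus strand: gcggcccacaAgctctttcct

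Ribosomal protein genes had called sites of weaker enrichment than the map as a whole. The fold given by the authors divides the read starts of the IP at a site by those of the input from that mouse. A site is called enriched here when its fold reaches 8, or 3 on the log2 scale. In mouse 1, 54 of 106 sites in these genes were enriched (50.9%, exact 95% interval 41.0% to 60.8%), beside 81.7% of all called sites. In mouse 2 it was 47 of 113 (41.6%, 32.4% to 51.2%), beside 79.1%. Their median fold was 8.02 in mouse 1 and 5.85 in mouse 2, against 15.04 and 14.4 over all sites. Folds under 2 were held by 25 sites in mouse 1 (23.6%) and 26 in mouse 2 (23.0%), against 1.10% and 1.25% of all sites. The authors' score was less far apart, with medians of 29.9 and 25.97 against 31.4 and 31.9.

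With 1 fold per mouse, an exact two-sided permutation of signs over 2 animals cannot give a p below 0.5, so no test was run and both animals' values are set side by side. Intervals on shares cover counting error only, and the sites of 1 gene are not independent. The depth of the libraries is unknown, since the tables give no read numbers, so single folds are printed without an error.

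Most of these sites were called in both animals. Of the sites in mouse 1, 94 (88.7%) were called at the same nucleotide in mouse 2, against 83.4% of all sites. These made up 83.2% of the sites in mouse 2, against 79.8% of all sites. In structural genes alone the shares were 87.5% in mouse 1 and 75.4% in mouse 2. Among those 94, 39 were enriched in both mice (41.5%, 31.4% to 52.1%), beside 76.9% of all sites called in both. Another 11 passed the limit in mouse 1 alone and 4 in mouse 2 alone, and 40 did so in neither animal. On the log2 scale the mice differed by 0.59 at the median site, against 0.56 over all shared sites, and 5 of the 94 sites differed by more than 4-fold, against 1218 of the 38082 in the whole map.

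**Figure D1:**
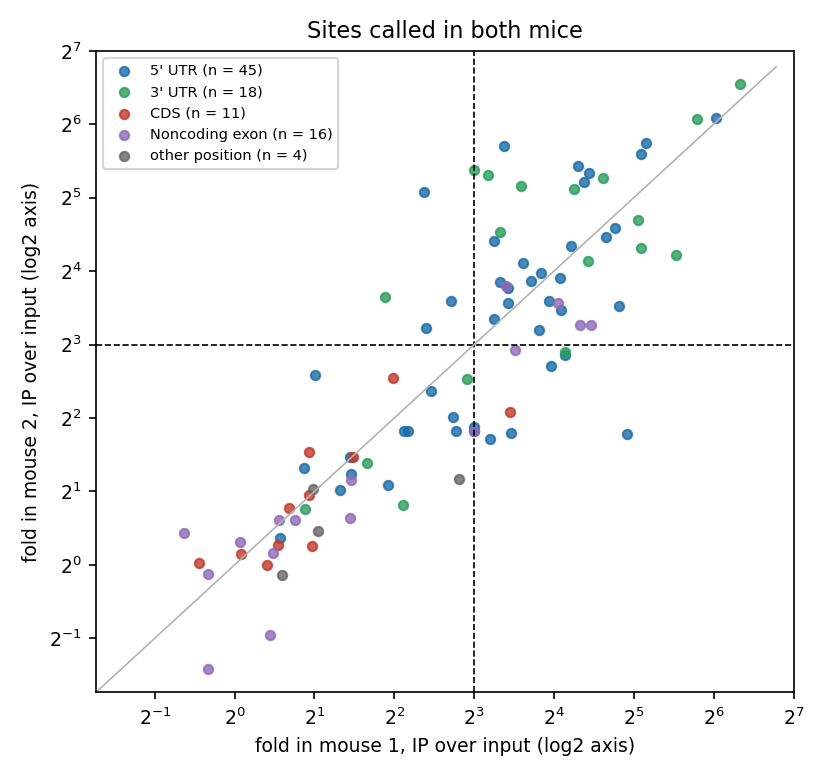
Fold of read starts (IP over input) in mouse 1 against mouse 2 for the 94 sites of these genes called in both, coloured by the authors' annotated position, on log2 axes with dashed lines at a fold of 8 and a grey line of equality. The 39 sites to the upper right of both dashed lines are enriched in both mice and include none of the 11 coding sequence sites, which lie mostly at folds under 4.

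By gene, 20 of the 32 members called in both animals carried a site enriched in both (62.5%, 43.7% to 78.9%), beside 86.9% of all genes called in both. These were 13 genes of the large subunit, 2 of the small subunit (Rps27a and Rps4x), 3 paralogues, the pseudogene Rps4l and Rps19bp1. Of the 20, 12 had exactly 1 such site. The median number of called sites per gene was 2 in mouse 1 and 3 in mouse 2, against 4 over all genes in each. The structural genes are short: their median genomic length in RefSeq was 3175 bases, against 22526 bases over the genes called in both mice, and the part of length in these counts was not tested.

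**Figure D2:**
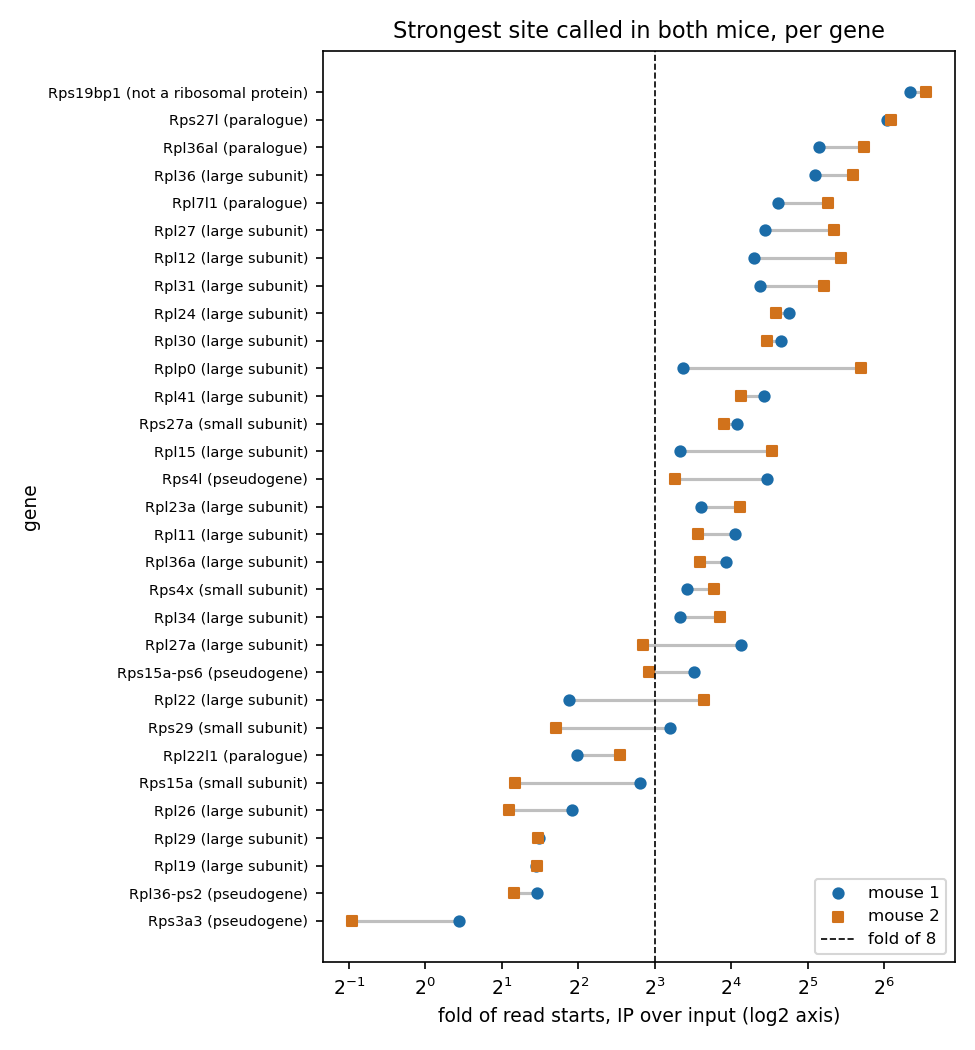
Strongest site called in both mice for 31 genes, as its fold (read starts in IP over input, log2 axis) in mouse 1 (circles) and mouse 2 (squares), with a dashed line at 8. The genes are ordered by mean log2 fold, from Rps19bp1 (80.7 and 93.4) at the top to the pseudogene Rps3a3 (1.36 and 0.51) at the bottom, and 20 of them lie above 8 in both mice.

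Structural ribosomal protein genes had a called site about as often as protein-coding genes in general. Of a list of 80 genes for the proteins of both subunits, which also holds names the rule does not match, such as Fau and Rack1, 51 had no called site under their own name in either mouse. The 29 with one made up 36.2% of the list, against 38.6% of all protein-coding genes of RefSeq, counted whether or not these cells express them. Small subunit genes were without one in 28 of 33 cases, among them Rpsa, Rps2, Rps3, Rps6 and Rps19. Large subunit genes were without one in 23 of 47, among them Rpl3, Rpl4, Rpl5 and Rpl10. Fau and Rack1 had none. The tables list only sites with a score above 10, so a gene that is not listed has no measured value. How reads that match several places were handled is not given, and the difference between the subunits was not tested.

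In large subunit genes the sites enriched in both mice were mostly in 5' UTRs, and most genes with such a site had only 1. Rpl36 carried the strongest, on chromosome 17 at 56613444, with folds of 34.1 in mouse 1 and 48.1 in mouse 2. A neighbour 10 bases before it had folds of 2.01 and 6.02. Rpl27 had a single called site, at position 101442406 of chromosome 11 (folds of 21.7 and 40.4). Both genes were well above 8 in each animal and higher in mouse 2.

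Rpl31 (chromosome 1 at 39367932) had 1 called site, with folds of 20.8 and 37.1. Rpl30 (chromosome 15 at 34443540) had 1, with folds of 25.1 and 22.1. The single site of Rpl23a (chromosome 11 at 78183559) had folds of 12.2 and 17.3, and that of Rpl34 (chromosome 3 at 130730321) had 10.03 and 14.4. In these 4 genes both animals lay above the limit and differed by less than 2-fold.

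Rplp0 encodes the stem of the ribosomal stalk that recruits translation factors. Its shared 5' UTR site (chromosome 5 at 115559485) stood at 10.4 in mouse 1 and at 52.0 in mouse 2, more than 4-fold apart. Rpl12, whose protein sits at the stalk base, had folds of 19.7 and 43.3 at 32961685 on chromosome 2. Only 2 bases further the folds were 30.1 and 3.44, above the limit in mouse 1 alone, so in Rpl12 the animals agreed at the first adenosine and not at the second.

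Rpl11, a large subunit protein that also binds the p53 regulator Mdm2, had 4 called sites within 20 bases on chromosome 4. The sites at 136053401 (16.5 and 11.9) and 136053393 (17.05 and 11.07) were enriched in both mice. The neighbouring adenosines at 136053383 (8.02 and 3.66) and 136053382 (5.18 and 33.7) were each enriched in 1 animal, and not the same one. Rpl36a on chromosome X had folds of 9.53 and 10.2 at 134585658 and of 15.3 and 12.04 at 134585660. Rpl24 had folds of 27.1 and 24.1 at 55966428 on chromosome 16, with a weaker site at 55966366 (10.5 and 14.0). The tables disagreed on the annotation of the stronger Rpl24 site, which is 5' UTR in mouse 1 and noncoding exon in mouse 2.

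Among structural genes, counting sites with a single gene name, a 3' UTR site enriched in both animals was found in Rpl15 and Rpl41 only. Rpl41 encodes the smallest ribosomal protein, and its site (chromosome 10 at 128548315) stood at 21.5 and 17.5, while another 23 bases further along the message had 1.84 and 1.70. The site of Rpl15 on chromosome 14 at 18268966 had folds of 10.03 and 23.1, with a score of only 10.5 in mouse 1. Rpl15 also had 5' UTR sites, of which that at 18271004 was above the limit in mouse 1 (15.5) and below it in mouse 2 (6.55).

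Small subunit genes contributed 4 sites enriched in both animals. Rps27a, which encodes ubiquitin fused to a ribosomal protein, held 3 of them in the 5' UTR on chromosome 11. Their folds were 14.04 and 9.15 at 29547892, 9.53 and 21.2 at 29547875, and 16.9 and 15.0 at 29547847. A site at 29547837, 10 bases past the last, had folds of only 1.48 and 1.29. The X-linked gene Rps4x held the fourth, at 102189353, with folds of 10.7 and 13.7, while the adenosine next to it had 4.35 and 3.53.

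Of the 4 paralogues, 3 were among the 5 genes with the highest mean log2 fold. Rps27l, a relative of Rps27 that is induced by p53, had the strongest site of any ribosomal protein relative, on chromosome 9 at 66946092, with folds of 65.5 and 68.2. Its other sites enriched in both mice, also in the 5' UTR, had folds of 14.2 and 15.7, 13.1 and 14.5, and 18.5 and 20.2, and the animals were close at all 4. The adenosine at 66946099, next to an enriched one, had folds of 5.26 and 9.36.

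Rpl7l1, a relative of Rpl7, had the most called sites, 12 in mouse 1 and 11 in mouse 2. Of its 5 sites enriched in both, 2 were in the 5' UTR and 3 in the 3' UTR. The strongest by mean lay in the 3' UTR on chromosome 17 at 46775427 (24.4 and 38.5), followed by 46775648 (34.1 and 19.9). In its 5' UTR the adjacent adenosines 46782644 and 46782645 had folds of 10.7 and 11.8, and of 1.82 and 2.49, so of 2 neighbouring bases 1 was enriched in both animals and the other in neither. Rpl36al, a close copy of Rpl36a, had folds of 35.4 and 53.4 near its start at 69184062 on chromosome 12, a site annotated as 5' UTR in mouse 1 and as distal intron in mouse 2. Rpl22l1 had 1 called site, in coding sequence, at 3.95 and 5.85.

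Rps19bp1 is the gene that is no ribosomal protein. All 7 of its called sites were in the 3' UTR, over a span of 186 bases on chromosome 15, and all were enriched in both mice. The strongest, at 80260933, had folds of 80.7 and 93.4, and the weakest in mouse 1, at 80260798, had 8.02 and 41.4. It therefore supplied 7 of the 12 shared enriched 3' UTR sites of the 38 genes, and Rpl7l1 another 3.

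Enriched sites of ribosomal protein genes were mostly in 5' UTRs. Of the 39 sites enriched in both mice, 23 were in 5' UTRs (59.0%, 42.1% to 74.4%), against 13.6% of all such sites. In structural genes alone it was 16 of 20 (80.0%, 56.3% to 94.3%). None of the 39 was in coding sequence (exact interval up to 9.03%), against 42.4% over all genes. Mitochondrial ribosomal protein genes, named Mrpl or Mrps and serving the separate ribosome of mitochondria, lay between, with 38 of 151 in 5' UTRs (25.2%) and 49 in coding sequence (32.5%). These shares were not tested against each other.

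**Figure D3:**
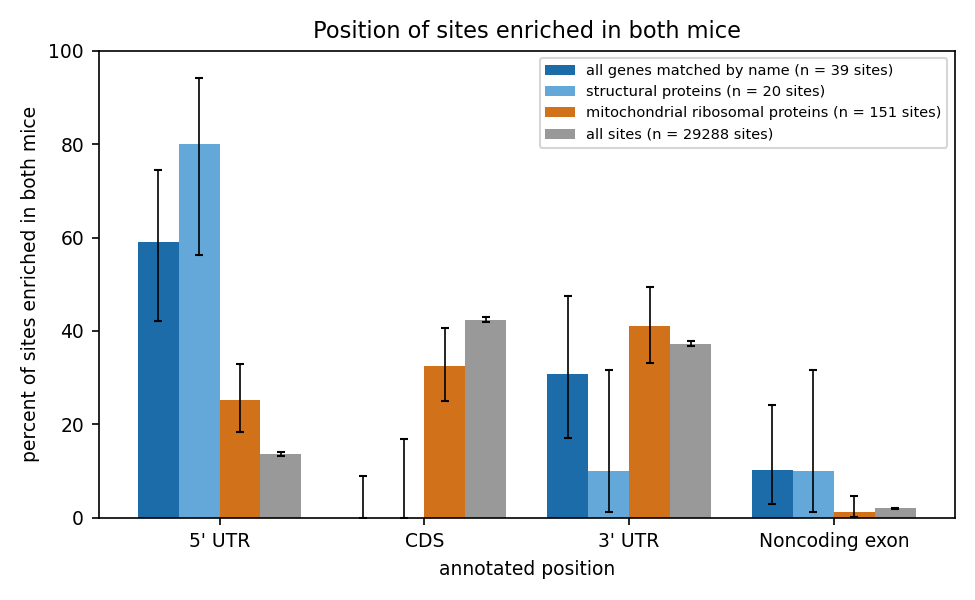
Share of sites enriched in both mice by the authors' annotated position, for all genes matched by name (39 sites), structural ribosomal protein genes (20), mitochondrial ribosomal protein genes (151) and all sites (29288), with exact 95% intervals as error bars. The 5' UTR bar is 80.0% for structural genes and 13.6% for all sites, and both bars of cytosolic genes are at 0 in coding sequence (CDS).

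Within 5' UTRs, the sites of these genes were enriched about as often as those of other genes. In mouse 1 it was 32 of 50 (64.0%), beside 64.7% of all 5' UTR sites, with median folds of 10.2 and 10.03. In mouse 2 it was 28 of 53 (52.8%), beside 61.9%, with median folds of 9.15 and 10.1. In coding sequence the shares were far apart: 1 of 14 sites was enriched in mouse 1 and 0 of 14 in mouse 2 (exact interval up to 23.2%), beside 87.7% and 84.7% of all coding sequence sites. The median fold there was 1.76 and 1.26, against 17.05 and 16.4.

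Among the genes with coding sequence sites were Rpl22l1, Rpl26, Rpl29 and Rpl36al in both mice and Rps4x in mouse 2. The 1 enriched site was in Rpl36al, on chromosome 12 at 69183067, with folds of 11.0 and 4.24. Rpl29 had folds of 2.80 and 2.78 at 106431373 on chromosome 9 and of 1.91 and 1.93 at 106431386. Rpl26 had 1.06 and 1.10 at 68904439 on chromosome 11. At all 3 of these Rpl29 and Rpl26 sites the fold was under 3 in both animals.

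Sites with a fold under 2 were found in 10 genes in mouse 1 and 12 in mouse 2, and 17 of the 25 in mouse 1 and 13 of the 26 in mouse 2 were outside the structural genes. Pseudogenes were prominent among them. Rpl36-ps2 had 6 sites within 10 bases on chromosome 11, at folds from 0.64 to 2.76, and the 2 sites of Rps3a3 ranged from 0.37 to 1.36. Rps15a-ps6 had 1 site near the limit (11.5 and 7.60) among others at 1.05 to 2.04. Only Rps4l carried sites enriched in both animals (20.1 and 9.63, and 22.1 and 9.63), with low scores of 13.5 and 13.9 in mouse 2. By RefSeq position the sites of the 4 pseudogenes also lie within the bounds of the protein-coding genes Abr, Nudcd3, Pde4d and Tmtc1. Strand was not compared, so some of these overlaps may be with the opposite strand. The sequence of the pseudogenes resembles that of the parent ribosomal genes, so the gene of origin of these reads is uncertain.

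Of the 12 members called in both mice without a shared enriched site, several had the mice on different sides of the limit. Rpl27a had folds of 17.5 and 7.22, Rps29 had 9.19 and 3.28, and Rpl22 had 3.68 and 12.5, the last in the 3' UTR. Rps15a had 1 site, at a 3' splice site, with 7.02 and 2.25. Rpl19 had its 2 shared sites, adjacent adenosines in the 5' UTR, at 2.75 and 2.36 and at 2.72 and 2.76. Sites called in 1 animal alone were all that Rpl13a (12.03), Rpl17 (7.02) and Rpl21 (13.04) had in mouse 1, and Rpl28 (5.14), Rpl9 (5.30) and Rps15 (0.65 to 6.28) in mouse 2.

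Called sites of ribosomal protein genes stood close together. In mouse 1, 64 of 106 (60.4%, 50.4% to 69.7%) had another called site of these genes within 10 bases, against 19.2% of all sites. In mouse 2 it was 71 of 113 (62.8%, 53.2% to 71.7%), against 19.5%.

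Many enriched sites lay at the annotated start of the gene. By the 5' end of the gene in RefSeq, 11 of the 39 sites enriched in both mice were within 50 bases (28.2%, 15.0% to 44.9%), against 5.94% of all such sites. Some genes have several listed starts: by the nearest start in the promoter table, which held 25 of the 38 genes, the share was 15 of 31 (48.4%), against 8.43%. For mitochondrial ribosomal protein genes the shares were 21.9% and 24.8%. In 7 genes, 13 of the 125 called positions lay before the RefSeq gene start, among them 4 in Rpl12 (4 to 27 bases before it) and 3 in Rpl15. The enriched site of Rpl30 was 264 bases before it, while the authors' annotation gives it as 5' UTR.

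**Figure D4:**
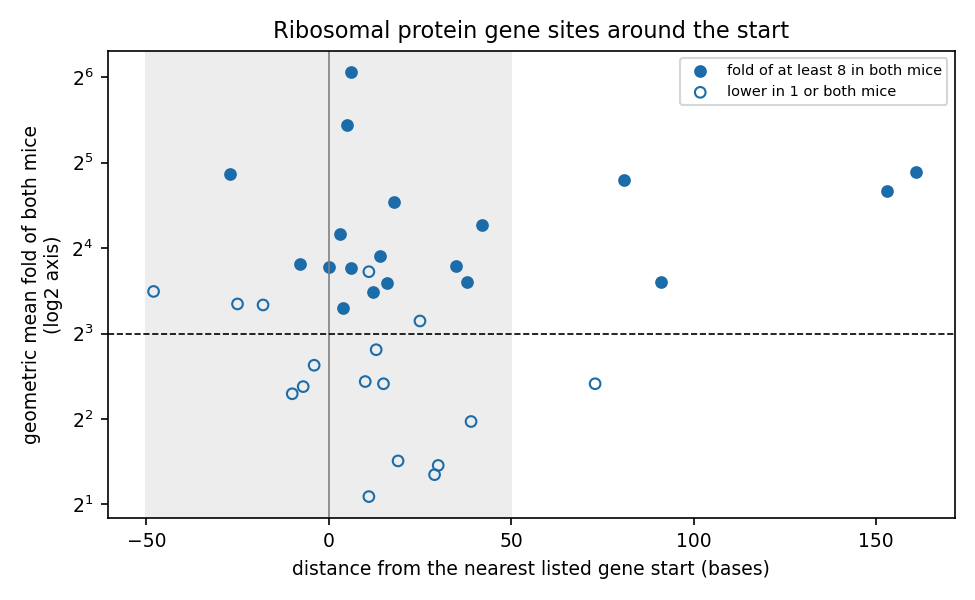
Geometric mean fold of both mice (log2 axis) against distance in bases from the nearest listed RefSeq start for the 36 sites called in both mice between 60 bases before and 170 bases after it; filled points are enriched in both animals, the dashed line is a fold of 8 and the grey band covers 50 bases on each side. Enriched and weaker sites are mixed within the band, and the highest point is Rps27l, 6 bases past its start.

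The bases next to the mark could be read for sites inside the promoter windows, which run from 250 bases before to 50 after a start. All 15 shared enriched sites there, in 9 genes, were on an adenosine, as were all 1999 such sites of the map. So were all 3605 sites of the map called in both mice there, at any fold, so this does not set enriched sites apart. In the 14 shared enriched sites of these genes with full flanks, the base before the adenosine was T in 6, C in 5 and A in 3. Over all genes it was C in 72.9% and T in 18.3%. A T on each side (TAT) was found in 4 of 14, as in the Rplp0 and Rpl12 sequences printed above, against 5.86% of all such sites. GAC or AAC, with the marked A in the middle, was found in none of the 14 and in 2.74% over all genes. With so few sites, and several of them from Rps27l, these are descriptions only.

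TOP-like runs were searched as a C followed by at least 4 bases that are each C or T, on the gene's strand within 10 bases of a listed start. They were found at 35 of the 69 starts listed for 59 of the 80 structural genes (50.7%, 38.4% to 62.98%), against 26.5% of all 32851 starts. Such a run followed within 10 bases of the called adenosine in 10 of the 30 shared called sites with full flanks (33.3%), as in Rpl26 and Rpl19, against 10.9% over all genes. Among shared enriched sites it was 2 of 14 (14.3%), against 11.1%. Neighbouring sites can share the same run, as the adjacent Rpl19 sites do, so some runs are counted repeatedly. A match is a string of letters, not a mapped start.

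Genes that work beside the ribosomal proteins had a smaller share of their shared enriched sites in 5' UTRs. In a list of 27 further genes of translation and TOP messages, 15 had a called site. Of the 14 called in both mice, 9 carried a shared enriched one, beside 20 of 32 members and 86.9% of all genes. The list had 22 such sites, 14 of them in coding sequence. Only 1 was in a 5' UTR, that of Ybx1, an RNA-binding protein (chromosome 4 at 119294500, 174 and 161). Vim, which encodes vimentin, followed (63.9 and 59.0), then the initiation factor gene Eif3a (30.1 and 59.2) and the elongation factor gene Eef1d (31.8 and 47.8). In a list of 44 genes of ribosome assembly, 33 of the 34 called in both carried a shared enriched site, beside the 86.9% of all genes. Ncl, which encodes nucleolin, was highest (150 and 83.9, 3' UTR), followed by Rrp12 (95.3 and 63.6), Nhp2 (139 and 41.9) and the nucleolar methyltransferase gene Fbl (101 and 49.1, 5' UTR). Of the 80 sites of the assembly list, 21 (26.3%) were in 5' UTRs.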

How the data were processed

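Oligo(dT) beads selected messenger RNA before the antibody step, per the labels' protocols. Tools listed in the submitters' processing notes are cutadapt 2.7, STAR 2.6.0c as well as UMI-tools 0.5.1, with the builds mm10 and hg38. Not given in the sources used here are the site caller, its score, its annotation and the handling of reads that match several places. The authors deposited 1 table per mouse, in which the fold is a ratio of read starts in IP over input and the score is a value per site, per the file headers. Ratios carry a constant of each table (1.003 and 0.963).

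Sites were shared on the same nucleotide and strand, positions are 1-based, and mouse 1's annotation was used for shared sites. Joined gene names were left out. Members and lists were chosen with earlier results of these data known. All members are in the counts, and results on some named items are not reported here; of the other lists the 4 highest genes are named. Symbols of all 38 members matched RefSeq (GRCm38.p6), and 112 of 125 called positions (89.6%) lay inside the named gene. Shares have exact (Clopper-Pearson) 95% intervals. The steps were tested on simulated data. Alternatives covered the fold limit, score, joined names, members, counting, sharing, start distance and each mouse. Python 3.11.15, pandas 2.3.3, NumPy 2.4.6, SciPy 1.17.1 and Matplotlib 3.10.9 were used.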

Additional observations from a re-analysis of the deposited data

Results flagged for a closer look

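A strong signal stood in sites left out above because their gene cell joins Rpl13a with the predicted gene Gm45713. On chromosome 7 at 45125934, a 3' UTR site of this pair stood at a fold of 53.35 in the first animal and 61.14 in the second, higher in both mice than the shared sites of any structural ribosomal protein gene. The other joined sites called in both mice, in coding sequence, had folds of 0.96 and 0.79, and of 0.91 and 0.57. Whether the site belongs to Rpl13a or to Gm45713 cannot be told apart from the tables.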

How the results depend on the processing

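Of 49 values under alternatives, 34 stayed within their interval, spread or 1.5 times the count. A log2 fold of at least 1 raised the shares of enriched sites to 76.4% in mouse 1 and 77.0% in mouse 2 (98.9% and 98.7% over all sites). A log2 fold of at least 4 gave 24.5% and 22.1% (47.4% and 46.3% over all sites) and left 11 members with a shared enriched site. With a score of at least 20 the share of mouse 2 was 51.4% (87.4% over all sites) and the median fold 11.7, against 6.92 over sites called in both. Rpl15, Rpl36al and Rps4l then had no shared enriched site, which left 17 members with one. With structural genes only, 80.0% of the shared enriched sites were in 5' UTRs and the median fold was 8.86. With the strongest site of each gene, 74.3% and 60% were enriched and the median fold was 14.3. The share of sites near a start was 48.4% by the nearest listed start, an alternative chosen after seeing the data. With the limit of 8 set before the constant of each table, also unplanned, the shares of enriched sites stayed at 50.9% and 41.6%. Over all sites they were then 81.7% in mouse 1 and 82.3% in mouse 2. Read 1 base to either side, 21.4% and 14.3% of the sites were on an adenosine. Leaving out a mouse gave 21 to 26 members with an enriched site, 59.3% to 59.6% in 5' UTRs, a median fold of 5.85 to 8.02 and 31.5% to 34.0% near a start. The fold limit does not enter the median fold. No paired analysis was possible because the deposited fold already compares IP with input within each mouse. Read numbers are not given, so depth limits every fold by an unknown amount.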
